A study of Homo sapiens with 18 samples.

Results

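NRBF2, RAB7A and WIPI2 were described together with 7 further genes of autophagy (BECN1, PIK3C3, ATG14, ULK1, SQSTM1, MAP1LC3B and GABARAPL1), which makes 10 of the 63677 gene identifiers counted in this study. The first 3 were picked from these libraries, NRBF2 and RAB7A because they rose with all 5 targeting siRNAs and WIPI2 because it rose with both KMT2D siRNAs. The other 7 were added as genes of the same pathway. The values that chose a gene are therefore given below as a description, without a test. Where NRBF2 and RAB7A were tested between targeting siRNAs, the libraries compared had also entered their choice. RNA sequencing was done in 18 libraries of ribosome-depleted total RNA from 3 human pancreatic ductal adenocarcinoma cell lines, SUIT2, COLO357 and PANC1, to follow the transcriptome after loss of KMT2C or KMT2D, histone methyltransferases that act at enhancers. In each line, 1 library was made with each of KMT2C siRNA1, siRNA2 and siRNA3, with each of KMT2D siRNA1 and siRNA2, and with a control siRNA. Every library, the controls included, came from cells that had been transfected with an siRNA for 48 h, so there was no untransfected group. This gave 9 libraries with KMT2C siRNA, 6 with KMT2D siRNA and 3 with control siRNA.

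Autophagy encloses cytoplasm in a double membrane, the autophagosome, and delivers it to the lysosome. The ULK1 kinase starts the process. A lipid kinase complex that contains PIK3C3 (the catalytic subunit VPS34), BECN1, ATG14 and NRBF2 then marks the membrane with a phosphoinositide that WIPI2 reads. Small ubiquitin-like proteins, among them MAP1LC3B and GABARAPL1, are attached to the growing membrane, SQSTM1 (p62) carries ubiquitinated cargo to them, and RAB7A, a GTPase of late endosomes, takes part in the fusion with the lysosome.

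Libraries held 14205640 to 32115894 gene counts. Levels are CPM, the counts of a gene scaled to the gene counts of its library, and were not scaled to gene length, so that they compare a gene with itself and not one gene with another. KMT2C lay between 42.5% and 86.6% of the same line's control level in 8 of the 9 KMT2C libraries, and at 123% in the library labelled PANC1 KMT2C siRNA2. KMT2D lay between 34.9% and 85.2% of control in the 6 KMT2D libraries. The gene not targeted also varied. KMT2D ran from 97.4% to 394.5% of control in the KMT2C libraries, and KMT2C from 94.3% to 275.3% in the KMT2D libraries. Keratins KRT8, KRT18 and KRT19 were expressed in every library, with KRT8 at least at 307 CPM, and the leukocyte markers PTPRC and CD3E were at or near 0. Of the endothelial markers, PECAM1 was at 0 in all 18, while CDH5 reached 4.47 to 28.6 CPM in COLO357 and stayed near 0 in the other lines. The collagen gene COL1A1, listed as a fibroblast marker, had 1.17 to 5.49 CPM in SUIT2, 21.5 to 149 CPM in COLO357 and 49.9 to 170 CPM in PANC1, and PDGFRB was at most at 1.17 CPM. The epithelial markers EPCAM and CDH1 were low in PANC1, with medians of 15.3 and 12.9 CPM, while the mesenchymal marker VIM had a median of 2190 CPM there. The share of read pairs in no annotated feature exceeded 20% in 3 libraries, KMT2C siRNA2 and KMT2C siRNA3 of SUIT2 and KMT2C siRNA3 of COLO357 (22.2% to 30.4%).

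The promoters of NRBF2 and RAB7A, the pair that rose with all 5 siRNAs, were read from RefSeq (GRCh38.p14), which is not the authors' build. They are shown with the palindrome TCACGTGA, a letter string of the kind bound by the lysosomal transcription factors of the MiT/TFE family, in capitals where it occurs.
NRBF2 promoter, chr10:63133078-63133377, plus strand: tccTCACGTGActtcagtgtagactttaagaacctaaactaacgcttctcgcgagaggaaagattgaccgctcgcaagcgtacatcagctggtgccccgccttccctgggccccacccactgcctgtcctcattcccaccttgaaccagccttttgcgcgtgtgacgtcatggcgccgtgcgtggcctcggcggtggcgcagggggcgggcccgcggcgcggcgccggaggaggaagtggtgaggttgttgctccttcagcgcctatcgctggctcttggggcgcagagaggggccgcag
RAB7A promoter, chr3:128725933-128726232, plus strand: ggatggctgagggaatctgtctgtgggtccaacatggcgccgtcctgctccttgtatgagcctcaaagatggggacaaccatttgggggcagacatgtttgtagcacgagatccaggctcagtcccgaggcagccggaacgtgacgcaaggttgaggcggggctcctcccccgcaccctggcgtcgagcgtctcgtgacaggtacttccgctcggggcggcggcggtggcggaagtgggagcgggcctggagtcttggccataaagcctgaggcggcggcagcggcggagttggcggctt
Each window runs from 250 bases before to 50 bases after the annotated start. The core CACGTG, searched on both strands, was found in 7.26% of 35116 such promoter windows, and among the 10 genes in those of NRBF2, at position -246, and ATG14, at position -21, but not in that of RAB7A. The longer TCACGTGA, which contains that core, was found in 0.98% of windows and only in that of NRBF2 among the 10. A match of letters is a description of the sequence and says nothing on what binds there.

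NRBF2 (ENSG00000148572), a regulatory subunit of the lipid kinase complex, was above the control of its own line in all 15 libraries with a targeting siRNA. In SUIT2 it had 33.0, 28.9 and 30.6 CPM with KMT2C siRNA1, siRNA2 and siRNA3 and 28.7 and 40.5 CPM with KMT2D siRNA1 and siRNA2, against 10.7 CPM with control siRNA. In COLO357 it had 25.1, 20.6 and 21.7 CPM with the KMT2C siRNAs and 26.9 and 27.9 CPM with the KMT2D siRNAs, against 11.3 CPM with control siRNA. In PANC1 it had 47.0, 41.6 and 43.8 CPM with the KMT2C siRNAs and 41.3 and 54.2 CPM with the KMT2D siRNAs, against 19.96 CPM with control siRNA. The lowest targeted library of each line was thus well above its control, and the 3 KMT2C libraries of a line lay close together. The library ratios to control ran from 1.83 to 3.77, with a median of 2.39. KMT2C siRNAs gave a mean log2 fold change of 1.21 ± 0.25 (SD, n = 9 libraries), and KMT2D siRNAs gave 1.39 ± 0.29 (n = 6).

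RAB7A (ENSG00000075785), the late endosomal GTPase, was also above control in all 15 targeted libraries, with a wider spread. In SUIT2 it had 124.6, 203 and 161 CPM with KMT2C siRNA1, siRNA2 and siRNA3 and 99.6 and 175 CPM with KMT2D siRNA1 and siRNA2, against 58.1 CPM with control siRNA. In COLO357 it had 69.7, 94.1 and 95.6 CPM with the KMT2C siRNAs and 64.7 and 80.3 CPM with the KMT2D siRNAs, against 49.7 CPM with control siRNA. In PANC1 it had 156, 164 and 173 CPM with the KMT2C siRNAs and 123 and 229 CPM with the KMT2D siRNAs, against 65.2 CPM with control siRNA. KMT2D siRNA1 was the lowest of the 5 in every line. Ratios to control ran from 1.30 to 3.51 with a median of 2.14, and for each siRNA the lowest ratio was in COLO357. The mean log2 fold change was 1.19 ± 0.38 (SD, n = 9) with KMT2C siRNAs and 1.03 ± 0.56 (n = 6) with KMT2D siRNAs.

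WIPI2 (ENSG00000157954), the phosphoinositide-binding protein that recruits the conjugation machinery, changed by less. In SUIT2 it had 42.3, 53.7 and 44.6 CPM with KMT2C siRNA1, siRNA2 and siRNA3 and 66.1 and 61.7 CPM with KMT2D siRNA1 and siRNA2, against 39.7 CPM with control siRNA. COLO357 libraries had WIPI2 at 23.8, 25.3 and 20.3 CPM with the KMT2C siRNAs and 26.5 and 26.6 CPM with the KMT2D siRNAs, against 19.9 CPM with control siRNA. PANC1 libraries had WIPI2 at 72.5, 81.6 and 67.5 CPM with the KMT2C siRNAs and 103.9 and 83.7 CPM with the KMT2D siRNAs, against 66.6 CPM with control siRNA. In each line, both KMT2D libraries were above all 3 KMT2C libraries, and the KMT2C libraries' ratios to control ran from 1.01 to 1.35. The mean log2 fold change was 0.20 ± 0.15 (SD, n = 9) with KMT2C siRNAs and 0.53 ± 0.16 (n = 6) with KMT2D siRNAs.

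**Figure D1:**
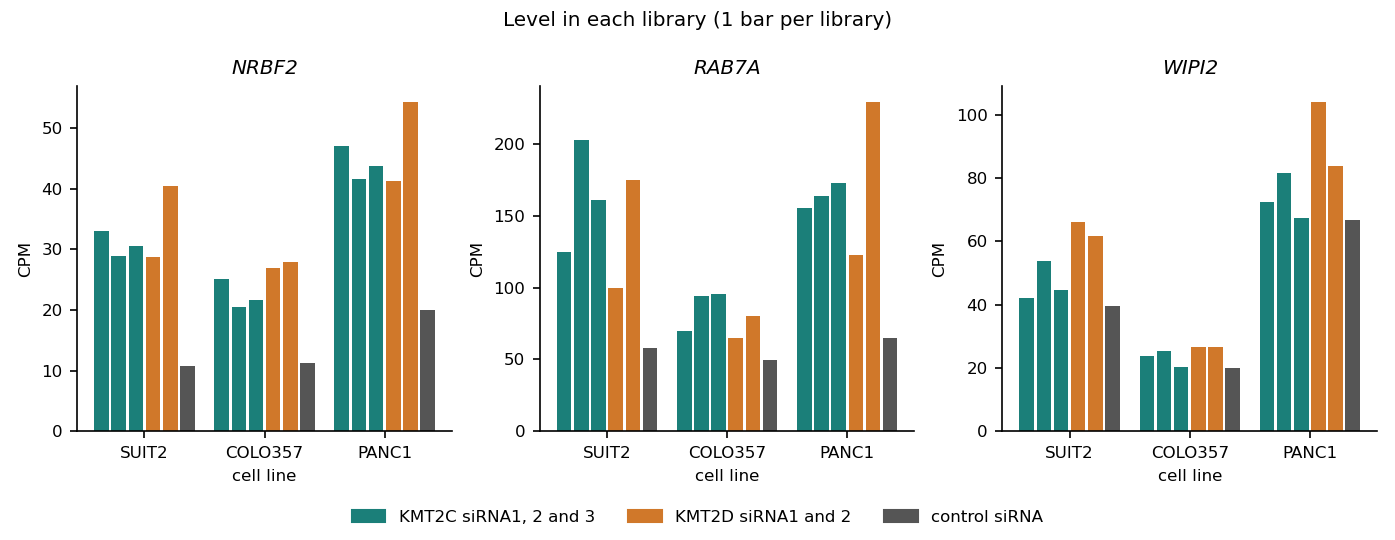
Level of NRBF2, RAB7A and WIPI2 in CPM (linear axes from 0) in each of the 18 libraries, 1 bar per library, grouped by cell line. In each line the bars run from KMT2C siRNA1, siRNA2 and siRNA3 through KMT2D siRNA1 and siRNA2 to control siRNA, whose bar is the lowest of its line for all 3 genes.

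A gene was called where edgeR's quasi-likelihood test gave an adjusted p under 0.05 over the 21028 genes tested, and all 10 genes passed its filter on low counts. Against control siRNA, 0.176% of genes were called higher with each of the 5 siRNAs and 0.818% with both KMT2D siRNAs, which are the criteria that chose the first 3 genes, so nothing is read from these shares. The fitted log2 fold changes of the single siRNAs against control spanned 1.06 to 1.58 for NRBF2 and 0.64 to 1.40 for RAB7A. For WIPI2 they were 0.57 and 0.50 with KMT2D siRNA1 and siRNA2 and 0.06 to 0.31 with the KMT2C siRNAs. Next after WIPI2, which was called with 2 siRNAs, came ULK1 and MAP1LC3B with 1 siRNA each, and the other 5 genes were called with none. Single siRNAs against control called 1.2%, 5.81% and 0.623% of all genes for KMT2C siRNA1, siRNA2 and siRNA3, and 4.02% and 8.92% for KMT2D siRNA1 and siRNA2. NRBF2, RAB7A and WIPI2 were 3 of the 315 genes (1.5%) that lay above the same line's control in all 15 targeted libraries. All of these comparisons share the same 3 control libraries and 1 control siRNA, so a change made by the 5 targeting siRNAs and one made by the control siRNA cannot be told apart.

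Likeness to this pair was measured on the fold changes over control that had chosen it, so a near gene is mostly one that also rose. It is given as a description. By the root mean square difference of their log2 fold changes over the 15 targeted libraries, the genes most like NRBF2 among 12957 compared were CYRIB (0.24), MBTPS1 (0.25), PTPN14 (0.28), ELOA (0.29) and TOMM20 (0.30). For RAB7A they were HMBOX1 (0.29), ERCC5 (0.33), ELOA (0.34), MBTPS1 (0.36) and FBXL12 (0.37). NRBF2 and RAB7A differed from each other by 0.43 on this measure, and the median gene differed from NRBF2 by 1.37 and from RAB7A by 1.27. ELOA and MBTPS1 were in both lists. All of the listed genes but ERCC5 and FBXL12 were themselves called higher with all 5 siRNAs.

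The 3′ UTRs of the 33 genes with a matched transcript that were higher with all 5 siRNAs, NRBF2 and RAB7A left out, were compared with those of 14258 other genes for strings of 7 letters on the transcript strand. The strings with the largest excess were chosen after seeing these shares. CACTGTC was in 48.5% of the 33 and 13.7% of the others, TTCCAGG in 51.5% and 18.2%, and TCACTGT, which overlaps CACTGTC, in 51.5% and 20.2%. The 33 genes had longer 3′ UTRs, with a median of 2352 bases against 1333 bases, and the part of length in these shares was not tested. NRBF2 held TCACTGT once, RAB7A held none of the 3 strings, and PIK3C3 and SQSTM1 held the joined string TCACTGTC. The sites of TCACTGT, alone or in the joined string, are shown in capitals, and those of TTCCAGG are not shown. The windows of 30 bases are from GENCODE v29 transcripts (GRCh38, not the authors' build).
NRBF2, chr10:63154367-63154396, plus strand: ttgggaaacagTCACTGTgaaatgcgctgc
PIK3C3, chr18:42086353-42086382, plus strand: tccttgggccaTCACTGTCagagacatttg
SQSTM1, chr5:179837678-179837707, plus strand: accttggctgcTCACTGTCcacatgtgaac
In all, 4 of the 10 genes held any of the strings, ULK1 only through TTCCAGG, which SQSTM1 also held. The share of all genes that held any of them is not given, so nothing is read from this count. PIK3C3 and SQSTM1, which hold the joined string, were not called against control with any siRNA. The strings were picked from genes that rose in these same libraries, so these calls are given as a description. A part of the strings in the rise was not tested.

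The starter of autophagy, ULK1 (ENSG00000177169), a serine/threonine kinase, had the widest spread of the 10 genes between libraries, with an SD of 0.77 of its log2 fold changes over the 15 targeted libraries. In SUIT2 it had 25.02, 24.8 and 12.9 CPM with KMT2C siRNA1, siRNA2 and siRNA3 and 10.8 and 23.4 CPM with KMT2D siRNA1 and siRNA2, against 13.9 CPM with control siRNA. In COLO357 it had 3.38, 9.46 and 3.35 CPM with the KMT2C siRNAs and 5.33 and 7.39 CPM with the KMT2D siRNAs, against 5.27 CPM with control siRNA. In PANC1 it had 42.6, 90.9 and 42.2 CPM with the KMT2C siRNAs and 24.7 and 35.5 CPM with the KMT2D siRNAs, against 19.0 CPM with control siRNA. Targeted and control libraries overlapped in SUIT2 and COLO357, and in PANC1 all 5 targeted libraries were above control. By single siRNA, 2 of the 7 genes tested, ULK1 and MAP1LC3B, rose with KMT2C siRNA2 against control, where 5.81% of all genes were called. With that siRNA the log2 fold change of ULK1 was 1.30 (SE 0.33), at an adjusted p of 0.0239 in edgeR's quasi-likelihood test, and its level was above control in 3 of 3 lines. Without the library labelled PANC1 KMT2C siRNA2, in which KMT2C was not below control, the value was 1.02 with an adjusted p of 0.122 in edgeR's quasi-likelihood test. Without the PANC1 control or the SUIT2 control it was 1.00 and 1.36, with adjusted p of 0.19 and 0.077 in the same edgeR test.

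Within the lipid kinase complex, none of the 3 partners of NRBF2 described here was called against control with any siRNA. The single siRNAs called 0.623% to 8.92% of all genes, so few calls among 3 genes say little. BECN1 (ENSG00000126581), the scaffold subunit, had 27.9, 31.8 and 26.7 CPM with KMT2C siRNA1, siRNA2 and siRNA3 and 17.8 and 37.1 CPM with KMT2D siRNA1 and siRNA2 in SUIT2, against 32.0 CPM with control siRNA. COLO357 libraries had BECN1 at 52.0, 64.5 and 48.7 CPM with the KMT2C siRNAs and 38.8 and 61.1 CPM with the KMT2D siRNAs, against 49.4 CPM with control siRNA. PANC1 libraries had BECN1 at 37.3, 42.9 and 30.9 CPM with the KMT2C siRNAs and 26.8 and 37.4 CPM with the KMT2D siRNAs, against 32.7 CPM with control siRNA. The 2 KMT2D siRNAs lay on opposite sides of control in each line. With KMT2D siRNA1 against control the log2 fold change of BECN1 was -0.52 (SE 0.15). This narrowly missed the threshold in edgeR's quasi-likelihood test (adjusted p = 0.0546). KMT2D siRNA2 over KMT2D siRNA1 gave a log2 fold change of 0.80 (SE 0.15), at an adjusted p of 0.00107 in edgeR's quasi-likelihood test, with the same direction in 3 of 3 lines.

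PIK3C3 (ENSG00000078142), the catalytic subunit, was below control in 9 of 15 targeted libraries and ATG14 (ENSG00000126775), the subunit that directs the complex to autophagosome formation, in 7 of 15. For PIK3C3 the library ratios to control ran from 0.78 to 1.64, and its control levels were 19.0 CPM in SUIT2, 7.44 CPM in COLO357 and 24.6 CPM in PANC1. For ATG14 they ran from 0.77 to 1.57, and its control levels were 32.3 CPM in SUIT2, 16.3 CPM in COLO357 and 34.0 CPM in PANC1. With KMT2C siRNAs together, edgeR's fitted log2 fold change against control was 0.09 for PIK3C3 (SE 0.19, adjusted p = 0.935) and -0.01 for ATG14 (SE 0.18, adjusted p = 0.993). With KMT2D siRNAs together it was 0.06 for PIK3C3 (SE 0.20, adjusted p = 0.954) and 0.13 for ATG14 (SE 0.19, adjusted p = 0.843).

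The siRNAs against KMT2D also differed for RAB7A. KMT2D siRNA2 over siRNA1 gave a log2 fold change of 0.76 for this gene (SE 0.17), at an adjusted p of 0.0048 in edgeR's quasi-likelihood test, and siRNA2 was the higher in 3 of 3 lines. RAB7A and BECN1 were 2 of 9 genes called in this comparison, in which 11.3% of all genes were called. NRBF2 was higher with KMT2D siRNA2 by 0.38 (SE 0.16), with an adjusted p of 0.135 in edgeR's test. The libraries on both sides had entered the choice of RAB7A and NRBF2, so their p-values are not independent of that choice. The same holds for these genes between the KMT2C siRNAs. Between the 3 KMT2C siRNAs, edgeR called none of the 10 genes in the 3 pairwise comparisons, with an unadjusted p under 0.05 for 4 genes between siRNA2 and siRNA1, 1 between siRNA3 and siRNA1 and 5 between siRNA3 and siRNA2. These comparisons called 5.04%, 0.209% and 2.73% of all genes.

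Of the proteins attached to the autophagosome membrane, MAP1LC3B (ENSG00000140941) was the one called between the KMT2C and the KMT2D siRNAs. In SUIT2 it had 77.3, 81.9 and 41.2 CPM with KMT2C siRNA1, siRNA2 and siRNA3 and 42.6 and 44.3 CPM with KMT2D siRNA1 and siRNA2, against 46.8 CPM with control siRNA. In COLO357 it had 30.9, 35.2 and 28.3 CPM with the KMT2C siRNAs and 25.7 and 25.1 CPM with the KMT2D siRNAs, against 20.2 CPM with control siRNA. In PANC1 it had 66.9, 58.3 and 61.4 CPM with the KMT2C siRNAs and 28.0 and 39.5 CPM with the KMT2D siRNAs, against 32.7 CPM with control siRNA. In COLO357 and PANC1 every KMT2C library was above both KMT2D libraries, and in SUIT2 the KMT2C siRNA3 library was the lowest of all 6. MAP1LC3B was 0.57 higher on the log2 scale with KMT2C siRNAs than with KMT2D siRNAs (SE 0.15, 95% interval 0.25 to 0.89, adjusted p = 0.0294, edgeR's quasi-likelihood test). It was 1 of 9 genes called in this comparison, in which 5.17% of all genes were called. The same 5 siRNAs recur in the 3 lines, and with siRNA as a random block in limma-voom the call was lost, at 0.58 with an adjusted p of 0.113 and 0 of the 9 genes called. The direction held in all 34 alternatives tried and the call in 22 of them. It was also lost without any 1 of 5 libraries, PANC1 KMT2D siRNA1, PANC1 KMT2C siRNA1, PANC1 KMT2C siRNA3, SUIT2 KMT2D siRNA1 or SUIT2 KMT2C siRNA2, where edgeR's adjusted p was 0.0516 to 0.0713.

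Against control siRNA, KMT2C siRNAs together gave MAP1LC3B a log2 fold change of 0.67 (SE 0.19, adjusted p = 0.215, edgeR's quasi-likelihood test), with 8 of 9 libraries above control. No gene of the 7 tested was called in this comparison, in which edgeR called 0.281% of all genes, 1 had an unadjusted p under 0.05, and DESeq2 called 1, MAP1LC3B, with an adjusted p of 0.0425. With KMT2C siRNA2 alone MAP1LC3B rose by 0.77 (SE 0.20, adjusted p = 0.0186, edgeR's quasi-likelihood test), above control in 3 of 3 lines. That call was lost without the PANC1 control, the COLO357 control or SUIT2 KMT2C siRNA2, where edgeR's adjusted p was 0.116, 0.0569 and 0.121. KMT2C siRNA1 gave 0.78 (SE 0.20) and KMT2C siRNA3 gave 0.42 (SE 0.20), with adjusted p of 0.0501 and 0.441 in edgeR's test.

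**Figure D2:**
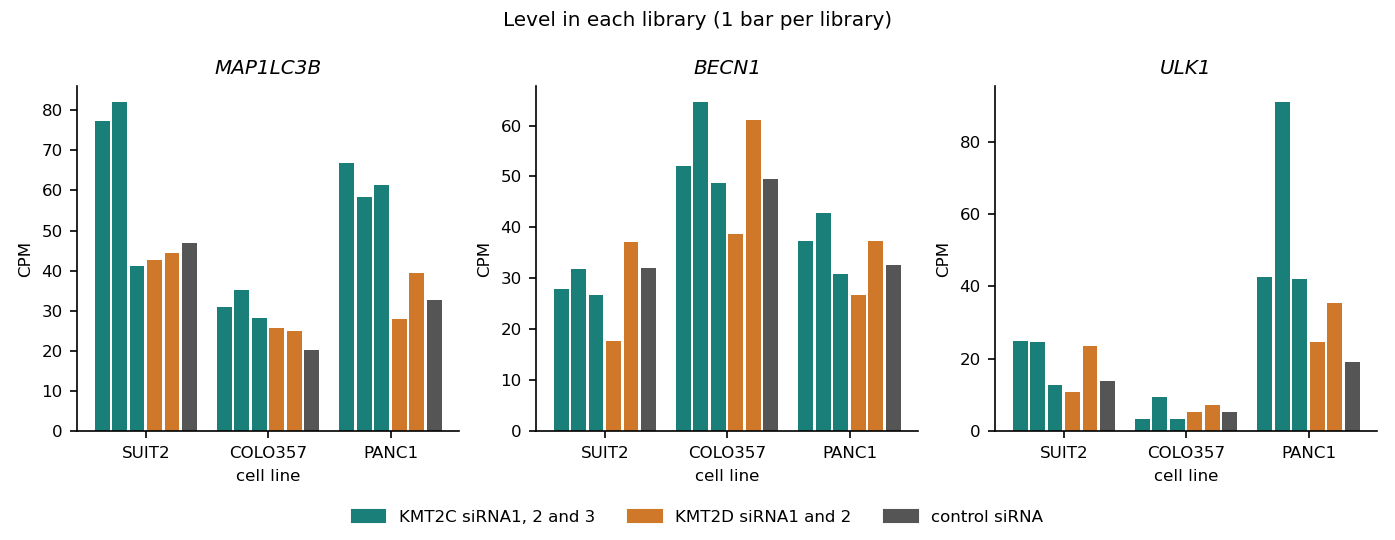
Level of MAP1LC3B, BECN1 and ULK1 in CPM (linear axes from 0) in each of the 18 libraries, 1 bar per library, in the order KMT2C siRNA1, siRNA2 and siRNA3, KMT2D siRNA1 and siRNA2, control siRNA within a line. The KMT2C bars of MAP1LC3B are the tallest in COLO357 and PANC1, KMT2D siRNA1 gives the shortest BECN1 bar of each line, and the PANC1 KMT2C siRNA2 bar of ULK1 stands at 90.9 CPM.

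GABARAPL1 (ENSG00000139112), of the same ubiquitin-like family, had 24.3, 15.7 and 9.24 CPM with KMT2C siRNA1, siRNA2 and siRNA3 and 16.9 and 20.4 CPM with KMT2D siRNA1 and siRNA2 in SUIT2, against 9.52 CPM with control siRNA. In COLO357 it had 32.7, 43.9 and 22.1 CPM with the KMT2C siRNAs and 29.01 and 52.8 CPM with the KMT2D siRNAs, against 43.8 CPM with control siRNA. In PANC1 it had 14.1, 13.8 and 12.1 CPM with the KMT2C siRNAs and 20.8 and 23.0 CPM with the KMT2D siRNAs, against 13.8 CPM with control siRNA. Above control lay 4 of 5 targeted libraries in SUIT2 and 2 of 5 in COLO357. KMT2C over KMT2D siRNAs gave a log2 fold change of -0.44 (SE 0.21, 95% interval -0.89 to 0.01, adjusted p = 0.22, edgeR's quasi-likelihood test). Near-identical copies of MAP1LC3B and GABARAPL1 exist in the genome (MAP1LC3B2 and GABARAPL3), and the sources used here do not say how reads were split between them.

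SQSTM1 (ENSG00000161011), the cargo receptor, had 115.3, 156 and 79.9 CPM with KMT2C siRNA1, siRNA2 and siRNA3 and 132 and 256 CPM with KMT2D siRNA1 and siRNA2 in SUIT2, against 109.8 CPM with control siRNA. COLO357 libraries had SQSTM1 at 464, 663 and 415 CPM with the KMT2C siRNAs and 514 and 648 CPM with the KMT2D siRNAs, against 674 CPM with control siRNA. PANC1 libraries had SQSTM1 at 465.6, 657 and 603 CPM with the KMT2C siRNAs and 854 and 764 CPM with the KMT2D siRNAs, against 591 CPM with control siRNA. All 5 targeted libraries were below control in COLO357, and both KMT2D libraries were above it in SUIT2 and PANC1. KMT2C over KMT2D siRNAs gave -0.51 (SE 0.17, 95% interval -0.88 to -0.15), which missed the threshold in edgeR's quasi-likelihood test (adjusted p = 0.0791).

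For NRBF2 the same contrast gave -0.22 (SE 0.12, 95% interval -0.49 to 0.04, adjusted p = 0.294, edgeR's quasi-likelihood test). For RAB7A it gave 0.09 (SE 0.17, 95% interval -0.27 to 0.45, adjusted p = 0.798, edgeR's quasi-likelihood test). So a difference within these intervals is not excluded for either gene. Libraries of both targets had entered the choice of NRBF2 and RAB7A, so these p-values are not independent of it. ULK1 was at 0.33 (SE 0.30), BECN1 at 0.10 (SE 0.16), PIK3C3 at 0.04 (SE 0.15) and ATG14 at -0.14 (SE 0.14), with adjusted p of 0.548 to 0.917 in edgeR's test. WIPI2, chosen on KMT2D libraries, was at -0.36 and was not tested here. Against control siRNA, edgeR called none of the 7 tested genes with KMT2D siRNAs, where it called 1.2% of all genes, none of the 7 had an unadjusted p under 0.05, and DESeq2 called 0.

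**Figure D3:**
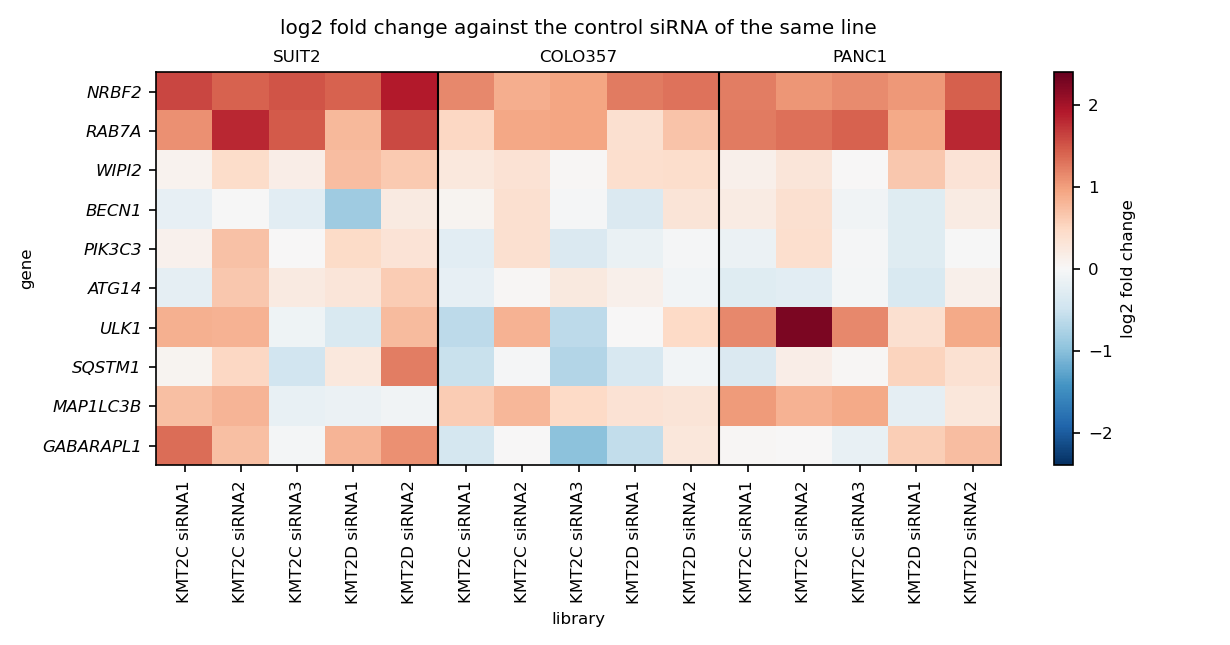
Log2 fold change of the 10 genes (rows of the picture) against the control siRNA library of the same line in the 15 targeted libraries, SUIT2 left, COLO357 in the middle and PANC1 right. NRBF2 and RAB7A are above 0 throughout, and MAP1LC3B is above 0 in 8 of 9 KMT2C libraries.

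**Figure D4:**
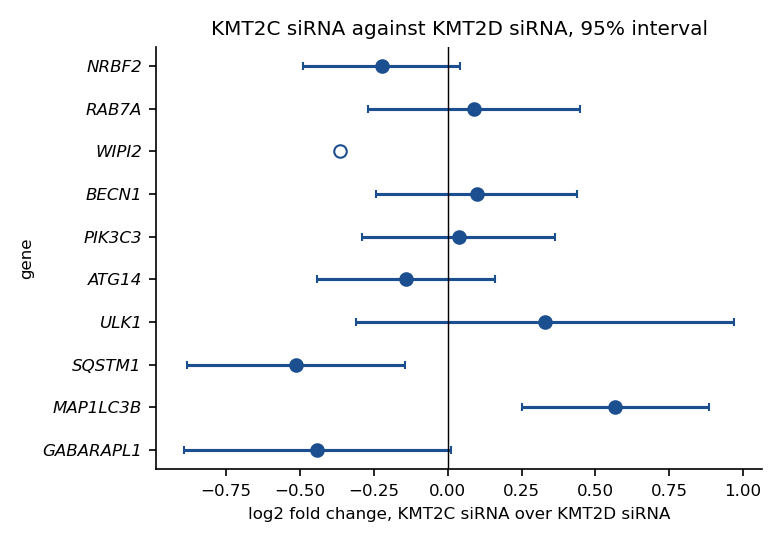
Fitted log2 fold change of KMT2C siRNAs (9 libraries) over KMT2D siRNAs (6 libraries) for the 10 genes, with bars for the 95% interval, each gene's own and not adjusted for the number of genes tested. WIPI2 is an open point without an interval because KMT2D libraries chose it, and MAP1LC3B, at 0.57, is the gene that passed the adjusted threshold.

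No difference of an siRNA effect between the lines was called for the genes tested. Against control these were 7 of the 10, without NRBF2, RAB7A and WIPI2, and between KMT2C and KMT2D siRNAs 9, without WIPI2. Each line had 1 control library and no gene at all was called, so these tests say little about the 10. The 3 edgeR tests of such a difference called 0 of all 21028 genes (0%), with 469 genes at an unadjusted p under 0.05 for KMT2C siRNAs against control, 475 for KMT2D siRNAs against control and 703 for KMT2C against KMT2D siRNAs. Every gene tested among the 10 had an adjusted p of 1, and the lowest unadjusted p was 0.19, for GABARAPL1 with KMT2C siRNAs. Within lines, NRBF2 was at a log2 fold change of 1.53 in SUIT2, 0.96 in COLO357 and 1.09 in PANC1 with KMT2C siRNAs, and at 1.72, 1.31 and 1.23 with KMT2D siRNAs. RAB7A was at 1.49 in SUIT2, 0.76 in COLO357 and 1.28 in PANC1 with KMT2C siRNAs, and at 1.28, 0.57 and 1.40 with KMT2D siRNAs. These are each line's values over its own control, given as a description.

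The 10 genes were also compared between the lines. The choice of genes had not used differences between lines. The targeted libraries whose rise chose NRBF2, RAB7A and WIPI2 entered, so for these genes the comparison is not independent of the choice. Per the labels' protocols, COLO357 and PANC1 cells were seeded at the same number and SUIT2 cells at a lower one, and 6 libraries of each line entered. In edgeR's quasi-likelihood test, SUIT2 differed from COLO357 in all 10 genes (59.7% of all genes called) and from PANC1 in 4 of 10 (59.3%), and COLO357 differed from PANC1 in 9 of 10 (66.8%). Since so many genes differed between the lines, nothing particular to the 10 is read from these counts.

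The order of levels was shared by several genes. ULK1 averaged 18.5 ± 6.62 CPM in SUIT2, 5.70 ± 2.38 CPM in COLO357 and 42.5 ± 25.5 CPM in PANC1 (SD, n = 6 libraries each). COLO357 was 2.82 below PANC1 on the log2 scale (SE 0.34, adjusted p = 5.97e-07), and SUIT2 lay between them and differed from both in edgeR's quasi-likelihood test. WIPI2 kept the same order, with 51.4 ± 10.9 CPM in SUIT2, 23.7 ± 2.99 CPM in COLO357 and 79.3 ± 14.0 CPM in PANC1, and all 3 lines differed. NRBF2 averaged 28.7 ± 9.82 CPM in SUIT2, 22.2 ± 6.09 CPM in COLO357 and 41.3 ± 11.5 CPM in PANC1. In the control libraries alone it had 10.7 CPM in SUIT2, 11.3 CPM in COLO357 and 19.96 CPM in PANC1. SUIT2 was thus not above COLO357 there. The step of NRBF2 between SUIT2 and COLO357 was small, 0.32 on the log2 scale (SE 0.14, adjusted p = 0.0492, edgeR's quasi-likelihood test), and was called in only 6 of 25 alternatives, with adjusted p of 0.0215 to 0.24.

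RAB7A, PIK3C3, ATG14 and MAP1LC3B were lowest in COLO357, and SUIT2 and PANC1 did not differ beyond the spread for any of these 4 (adjusted p of 0.141 to 0.408, edgeR's quasi-likelihood test). PIK3C3 averaged 23.2 ± 4.78 CPM in SUIT2, 7.20 ± 1.41 CPM in COLO357 and 24.7 ± 4.19 CPM in PANC1. RAB7A averaged 136.9 ± 53.2 CPM in SUIT2, 75.7 ± 17.8 CPM in COLO357 and 152 ± 54.6 CPM in PANC1. In the control libraries alone RAB7A had 58.1 CPM in SUIT2, 49.7 CPM in COLO357 and 65.2 CPM in PANC1, which lay closer together. The targeted libraries, whose rise chose RAB7A, thus entered its line values. ATG14 averaged 39.5 ± 9.20 CPM in SUIT2, 16.6 ± 1.77 CPM in COLO357 and 31.1 ± 4.19 CPM in PANC1. MAP1LC3B averaged 55.7 ± 18.7 CPM in SUIT2, 27.6 ± 5.18 CPM in COLO357 and 47.8 ± 16.4 CPM in PANC1.

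GABARAPL1 and BECN1 went the other way and were highest in COLO357. GABARAPL1 averaged 16.0 ± 5.95 CPM in SUIT2, 37.4 ± 11.4 CPM in COLO357 and 16.3 ± 4.47 CPM in PANC1, and COLO357 over PANC1 gave a log2 fold change of 1.19 (SE 0.23), at an adjusted p of 0.000115 in edgeR's quasi-likelihood test. BECN1 averaged 28.9 ± 6.56 CPM in SUIT2, 52.4 ± 9.28 CPM in COLO357 and 34.7 ± 5.68 CPM in PANC1, where SUIT2 over PANC1 gave a log2 fold change of -0.33 (adjusted p = 0.102, edgeR's test). That step of BECN1 was called in 2 of 25 alternatives, at -0.36 with limma-voom and siRNA as a random block (adjusted p = 0.0343) and at -0.48 in edgeR's test without SUIT2 KMT2D siRNA2 (adjusted p = 0.0184). SQSTM1 was low in SUIT2, with 141 ± 61.5 CPM there, 563 ± 112.9 CPM in COLO357 and 656 ± 137 CPM in PANC1. SUIT2 was 2.30 lower than PANC1 on the log2 scale (SE 0.20, adjusted p = 1.16e-09, edgeR's quasi-likelihood test), and COLO357 and PANC1 did not differ beyond the spread (adjusted p = 0.256).

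**Figure D5:**
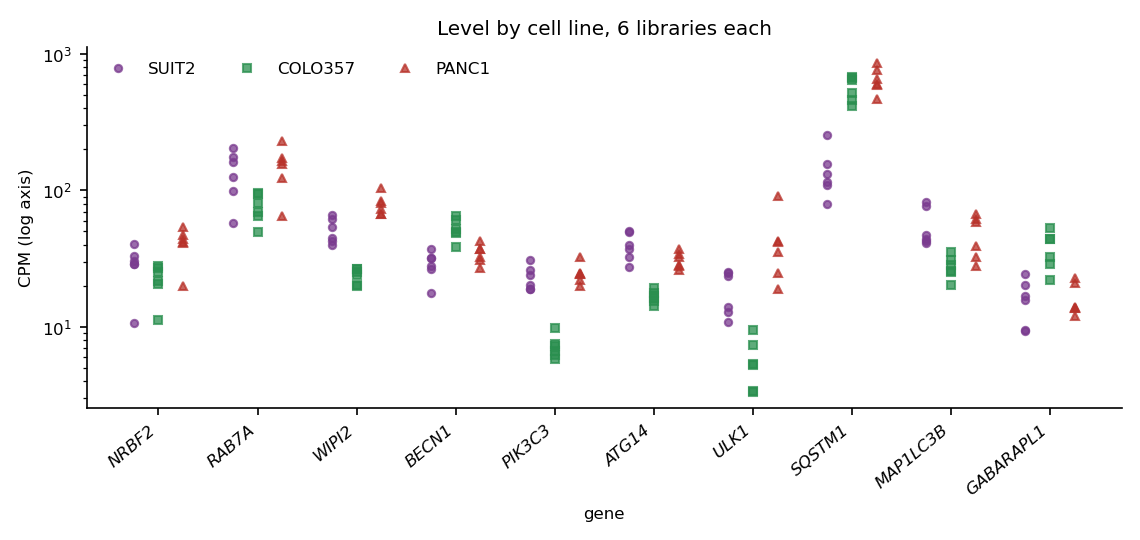
Level of the 10 genes in CPM (log axis) in the 6 libraries of SUIT2, COLO357 and PANC1, 1 point per library. Points of different genes are not scaled to length. COLO357 is lowest for ULK1, PIK3C3, ATG14 and WIPI2 without overlap with the other lines, and SUIT2 is lowest for SQSTM1.

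The pathway around these genes was followed in a list of 80 genes of 9 steps of autophagy, of which 70 are not among the 10 and 67 were tested. NRBF2 and RAB7A, which had been chosen for this rise, were the 2 genes of the 80 called higher with all 5 siRNAs. Of all genes 0.176% were, and nothing is read from this count. With KMT2C siRNAs against control, edgeR called 0 of the 67 and 0.281% of all genes, with 4 at an unadjusted p under 0.05 and 0 called by DESeq2, and their median log2 fold change was 0.11, against 0.004 over all genes tested. With KMT2D siRNAs against control it called 0 of the 67 and 1.2% of all genes, with 4 at an unadjusted p under 0.05 and 2 called by DESeq2, and the median was 0.12, against 0.02 over all genes. At shares of all genes as low as these, counts of 0 say little about the list. Above 0 lay 46 of the 67 with KMT2C siRNAs and 45 with KMT2D siRNAs. The share of all genes above 0 is not given, and both contrasts use the same control libraries. Nothing is therefore read from these counts or from those by step below. By step, medians ran from -0.09 (the 9 regulators and effectors of RAB7A) to 0.28 (the 7 effectors that bind the phosphoinositide or transfer lipid, all 7 above 0) with KMT2C siRNAs. With KMT2D siRNAs they ran from -0.03 (the 4 other genes of the ULK1 kinase step) to 0.26 (the 10 genes of the lysosome and its transcription factors, 9 of 10 above 0). The lysosome genes had a median of 0.17 with KMT2C siRNAs, with 8 of 10 above 0, and the 5 other genes of the lipid kinase complexes had medians of 0.05 with KMT2C siRNAs and 0.07 with KMT2D siRNAs.

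Between KMT2C and KMT2D siRNAs, 3 of the 67 were called by edgeR, against 5.17% of all genes, so the list's share was no higher than that of all genes. With siRNA as a random block in limma-voom 0 of the 67 were called, as in edgeR's test without any 1 line, and without the 3 libraries with over 20% of read pairs in no annotated feature 1 was called. ATG4C (ENSG00000125703), a protease that processes the MAP1LC3B and GABARAPL1 family, was 0.67 higher on the log2 scale with KMT2C than with KMT2D siRNAs (SE 0.14, adjusted p = 0.0089, edgeR's quasi-likelihood test). It had 15.5, 21.4 and 17.9 CPM with KMT2C siRNAs and 12.5 and 8.44 CPM with KMT2D siRNAs in SUIT2, 20.2, 19.0 and 20.5 CPM against 15.03 and 11.2 CPM in COLO357, and 11.9, 14.1 and 12.6 CPM against 6.69 and 8.94 CPM in PANC1. Control levels of ATG4C were 18.1 CPM in SUIT2, 14.8 CPM in COLO357 and 13.1 CPM in PANC1. KMT2D siRNAs against control gave it -0.58 (SE 0.18, adjusted p = 0.124, edgeR's quasi-likelihood test). RUBCN (ENSG00000145016), which inhibits a lipid kinase complex that contains PIK3C3, was 0.58 higher (SE 0.13, adjusted p = 0.0132, edgeR's quasi-likelihood test). FUNDC1 (ENSG00000069509), a receptor for mitochondria, was lower with KMT2C than with KMT2D siRNAs, at -0.55 (SE 0.15, adjusted p = 0.038, edgeR's quasi-likelihood test). In each line the 3 KMT2C libraries lay above both KMT2D libraries for ATG4C and below both for FUNDC1. RUBCN had 45.8, 37.0 and 29.5 CPM with KMT2C siRNAs and 23.8 and 30.1 CPM with KMT2D siRNAs in SUIT2, where KMT2C siRNA3 was below KMT2D siRNA2 and the control level of 37.9 CPM. In COLO357 and PANC1 its KMT2C libraries were all above both KMT2D libraries.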

How the data were processed

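The deposited counts are whole read pairs for each Ensembl identifier, not normalized, in 1 table for each library, which the authors made with FastQC, TopHat2 and HTSeq on hg19, per the submitters' processing notes. The sources used here do not give the annotation release, HTSeq mode or strand setting, although the library kit keeps strand per the labels' protocols. The 5 entries that name no gene (32.98% to 53.39% of read pairs) were kept out. Symbols were matched by identifier to a gene-name table (52181 of 63677).

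All 18 libraries entered one fit of edgeR's quasi-likelihood test (edgeR 4.0.16, R 4.3.3) with target and cell line as terms, TMM factors (0.946 to 1.06), its filterByExpr step (at least 10 counts, total of 15, leaving 21028 genes) and Benjamini-Hochberg adjustment over all genes. Further fits had a level for each siRNA, or 9 groups of line by target. DESeq2 1.42.0 and limma 3.58.1 served as alternatives, and the edgeR fit was tested on simulated counts. Standard errors (SE) were taken from the F statistic. Per-library log2 fold changes compare a library with its own line's control, and n counts libraries.

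No 2 libraries of a group looked like copies (chi-square of 26.9 to 143 per gene). Nothing in the labels says that they came from separate cultures, so p-values reflect only how these libraries vary, siRNAs mixed, which may in part be technical. The 10 genes, the list of 80 genes and the rules were chosen with earlier results of these data known. Named were the 10 genes, every other list gene called between targets, and the 5 genes most like NRBF2 and most like RAB7A among those with a mean of at least 2 CPM.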

Additional observations from a re-analysis of the deposited data

Results flagged for a closer look

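MAP1LC3B with KMT2C siRNAs had 1 library far from the other 8. SUIT2 KMT2C siRNA3 was the lowest of the 9, at a log2 fold change of -0.18 against its line's control, while the nearest other library was at 0.48. It is 1 of the 3 libraries with over 20% of read pairs in no annotated feature, and the part of that share in this value was not tested. Of 20 groups checked in this way 1 stood out, and chance gives about 1 in 20.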

How the results depend on the processing

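The fit was repeated under 34 alternatives (25 for contrasts between lines and single siRNAs), of which 18 left out 1 library each. The alternative without the 3 libraries with over 20% of read pairs in no feature and those of the single siRNA contrasts were chosen after seeing the data. Against control, NRBF2 stayed between 1.03 and 1.29 on the log2 scale with KMT2C siRNAs and between 1.20 and 1.59 with KMT2D siRNAs, RAB7A between 0.996 and 1.41 and between 0.645 and 1.41, and WIPI2 between 0.099 and 0.226 and between 0.449 and 0.576. MAP1LC3B in KMT2C over KMT2D siRNAs ranged from 0.44 to 0.73. Its call was also lost with limma-voom and siRNA as a random block (adjusted p = 0.113), without KMT2D siRNA1 (0.12), KMT2C siRNA1 (0.097) or KMT2C siRNA2 (0.0765) in all lines, and without PANC1 (0.224), COLO357 (0.0711) or SUIT2 (0.131), where fewer libraries entered. RAB7A in KMT2D siRNA2 over siRNA1 was no longer called without PANC1 (0.64, adjusted p = 0.103) or SUIT2 (0.71, 0.0778), nor BECN1 without SUIT2 (0.64, 0.057). With KMT2C siRNA2 against control, ULK1 was not called without PANC1 (0.84, 0.337) or SUIT2 (1.51, 0.0833), nor MAP1LC3B without any 1 line (0.0613 to 0.103). SQSTM1 in KMT2C over KMT2D siRNAs was called in 4 of 34 alternatives, from -0.75 to -0.26, and BECN1 in 1, without KMT2D siRNA2 (0.55, adjusted p = 0.0234).

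Of the 9 genes tested between KMT2C and KMT2D siRNAs, 2 were called without a low-count filter or without KMT2D siRNA2, 0 with limma-voom, without KMT2C siRNA1 or without any 1 line, and 0 to 2 when 1 library was left out. Of the 67 further genes, 3 in edgeR, the counts there were 6 with DESeq2, 5 without a filter, 0 with limma-voom or without any 1 line, 7, 10, 1 and 6 without KMT2D siRNA1, KMT2D siRNA2, KMT2C siRNA1 or KMT2C siRNA2, 1 without the 3 libraries and 3 to 5 with 1 library left out. With KMT2D siRNAs against control they were 2 with DESeq2, 1 without a filter, 4, 1 and 1 without KMT2D siRNA1, KMT2D siRNA2 or KMT2C siRNA2, and 0 to 1 with 1 library left out. DESeq2 called 1 of 7 genes with KMT2C siRNAs against control. Counts over all genes ranged from 3 to 270 for KMT2C siRNAs against control, 30 to 1142 for KMT2D siRNAs against control and 96 to 1927 between them.

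Values that turned direction were not called in edgeR or in the alternative. With KMT2D siRNAs against control these were, without KMT2D siRNA1, BECN1 (0.288), without KMT2D siRNA2, PIK3C3 and ATG14 (both -0.025), ULK1 (-0.045) and MAP1LC3B (-0.022), without SUIT2, PIK3C3 (-0.122) and ATG14 (-0.042), and without COLO357, MAP1LC3B (-0.043). With KMT2C siRNAs against control they were BECN1 without KMT2C siRNA2 (-0.063) or COLO357 (-0.015), PIK3C3 without KMT2C siRNA2 (-0.129) or SUIT2 (-0.011), ATG14 with upper quartile factors (0.002), a floor of 2 CPM (0.006), without KMT2C siRNA1 (0.086) or PANC1 (0.133), and GABARAPL1 with limma-voom (-0.044), without KMT2C siRNA1 (-0.118), KMT2C siRNA2 (-0.053) or SUIT2 (-0.29). Between KMT2C and KMT2D siRNAs they were, without KMT2D siRNA1, RAB7A (-0.264), BECN1 (-0.263), PIK3C3 (-0.059) and ULK1 (-0.035), without KMT2C siRNA2, BECN1 (-0.004), PIK3C3 (-0.19) and ULK1 (-0.044), without PANC1, PIK3C3 (-0.035), without KMT2D siRNA2, ATG14 (0.011), and without the 3 libraries, RAB7A (-0.045). GABARAPL1 in SUIT2 over PANC1 turned to 0.042 without the 3 libraries. With 1 library left out, values that turned ranged, against control with KMT2D siRNAs, from -0.211 to 0.053 (BECN1), -0.079 to 0.125 (PIK3C3) and -0.016 to 0.263 (ATG14), with KMT2C siRNAs from -0.015 to 0.109 (BECN1), -0.04 to 0.16 (PIK3C3), -0.154 to 0.124 (ATG14), -0.323 to 0.05 (SQSTM1) and -0.242 to 0.333 (GABARAPL1), between targets from -0.028 to 0.26 (RAB7A), -0.027 to 0.238 (BECN1) and -0.047 to 0.082 (PIK3C3), and in SUIT2 over PANC1 from -0.297 to 0.062 (GABARAPL1). The causes were not tested.

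The siRNA numbers name different siRNAs and gave no pairing: deviations of same-numbered libraries correlated at -0.032 to 0.118. With the number as a replicate block, MAP1LC3B in KMT2C over KMT2D siRNAs was at 0.67, 1 of 9 genes and 9 of 67 were called, and 1191 genes in all.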
